A study of Mus musculus with 12 samples.

Results

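The comparison was between oocytes that the study classed as meiotically competent and oocytes that it classed as non-competent, by RNA-Seq of all 12 pools in the series. The mice were CD-1, an outbred strain, whose ovaries had not been stimulated, and the oocytes were those of antral follicles, with 18 to 45 oocytes in a pool. The 6 competent pools were 3 from mice at postnatal day 40 (PND 40) and 3 from the larger mice by body weight at PND 16 (PND 16 large), and the 6 non-competent pools were 3 from mice at PND 13 and 3 from the smaller mice at PND 16 (PND 16 small). No group carried a transgene or an injected hormone, and oocytes were held in medium with milrinone, an inhibitor of the oocyte phosphodiesterase that keeps prophase arrest, while cumulus cells were stripped off mechanically. Competence was assigned to each cohort by the study, from maturation assays, and was not measured on the oocytes that were sequenced. The assays shown were by age, and none was of PND 13 or PND 40 alone. The split of PND 16 by weight came from maturation assays of 2 mice in each weight group, whose data the study did not show. For sequencing, the study took oocytes from 3 mice per cohort and made 3 independent pools of them. It does not state whether each pool came from 1 mouse. The deposited labels give only the age and size class, so competence, age and body weight cannot be told apart across the 2 groups. Only PND 16 large vs. PND 16 small compares competence at 1 age, and there it goes with body weight.

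Meiotic competence is the ability of an oocyte to leave prophase arrest, break down its germinal vesicle and reach metaphase of the second division. It is acquired late in oocyte growth, when the follicle forms an antrum, as the oocyte accumulates the kinases, cyclins and spindle proteins that the divisions need. Transcription falls towards the end of this growth, and the egg then relies on stored maternal mRNA, so that the transcripts present at this stage are those that later steps translate or degrade.

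Of 24562 genes in the count table, 13943 passed a filter on low counts and were tested. A gene was called when edgeR's quasi-likelihood test gave a Benjamini-Hochberg adjusted p of at most 0.05 and the change was at least 1.5-fold, which 15% of genes met (3.78% higher in competent oocytes and 11.2% lower). To find the genes that both cohorts of each group carried, each called gene was also compared in the 4 cohort contrasts, namely PND 16 large vs. PND 16 small (6.19% of genes called), PND 16 large vs. PND 13 (13.3%), PND 40 vs. PND 16 small (17.2%) and PND 40 vs. PND 13 (18.9%). Genes at least 1.5-fold changed in the same direction in all 4 are named consistent genes here. These contrasts reuse the same pools as the test, so consistency is a description of the called genes and adds no independent evidence. Abundance is given as CPM, counts scaled to a common library total with TMM factors, which are not divided by transcript length.

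There were 1232 consistent genes, 8.84% of the genes tested, which made up 59.0% of the called genes. In competent oocytes 248 of them were higher (1.78% of genes tested) and 984 were lower (7.06%). Lower genes thus made up 79.9% of the consistent genes. Of the called lower genes 63.1% were consistent, and of the called higher genes 47.1%. Each of the 4 contrasts alone also met the call criteria for 503 genes, 59 higher and 444 lower.

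Among the called genes 279 higher and 576 lower ones were not consistent. Of the 527 called higher genes, 368 reached 1.5-fold in PND 16 large vs. PND 16 small and 365 in PND 16 large vs. PND 13, whereas 473 and 503 did so in PND 40 vs. PND 16 small and vs. PND 13. For the 1560 called lower genes these numbers were 1200, 1359, 1348 and 1516. The comparison at a single age was the only one under 1.5-fold for 51 higher and 154 lower genes. Direction seldom differed, since 510 of the called higher and 1555 of the called lower genes had the same sign in all 4 contrasts. Nearest to the limit of 0.585 on the log2 scale, the smallest of the 4 changes just passed at 0.585 for Coro2a, a coronin that binds actin, and fell just short at 0.584 for C330018D20Rik.

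Consistent genes differed more between PND 40 and PND 13 than between the cohorts of PND 16. The median log2 fold change of the higher consistent genes was 1.14 for PND 16 large vs. PND 16 small, 1.29 for PND 16 large vs. PND 13, 1.42 for PND 40 vs. PND 16 small and 1.57 for PND 40 vs. PND 13. For the lower consistent genes the medians were -1.03, -1.31, -1.30 and -1.55 in the same order. Within the groups the signed medians were small. Between PND 40 and PND 16 large the median log2 difference was 0.23 for higher and -0.22 for lower genes, and between PND 16 small and PND 13 it was 0.16 and -0.24. Such medians do not measure the spread between pools. PND 16 small replicate 1 correlated at 0.948 and 0.947 with replicates 2 and 3 of its own cohort (log2 CPM, all genes tested). It correlated at 0.975 with PND 13 replicate 2 and at 0.963 with PND 16 large replicate 3. PND 16 small replicate 2 correlated at 0.948 and 0.957 with its own cohort and at 0.960 to 0.969 with the PND 16 large pools. For PND 16 small replicate 3 the values were 0.947 and 0.957, against 0.958 with PND 16 large replicate 3. PND 13 replicate 2 correlated at 0.952 with its own cohort and at 0.963 with PND 16 large replicate 3. PND 13 replicates 1 and 3 correlated best with each other, at 0.981. PND 40 lay further from the non-competent side than PND 16 large for 68.1% of the higher and 74.7% of the lower consistent genes. A test of differences between the cohorts inside the groups (edgeR quasi-likelihood, adjusted p of at most 0.05) was passed by 8.74% of all genes, by 8.10% of called genes and by 31 of the 1232 consistent genes. The rule for consistent genes favours genes that are alike within the groups, so the last number is no evidence of that. The number over all genes was unstable, at 417 to 2864 genes when 1 pool was left out.

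**Figure D1:**
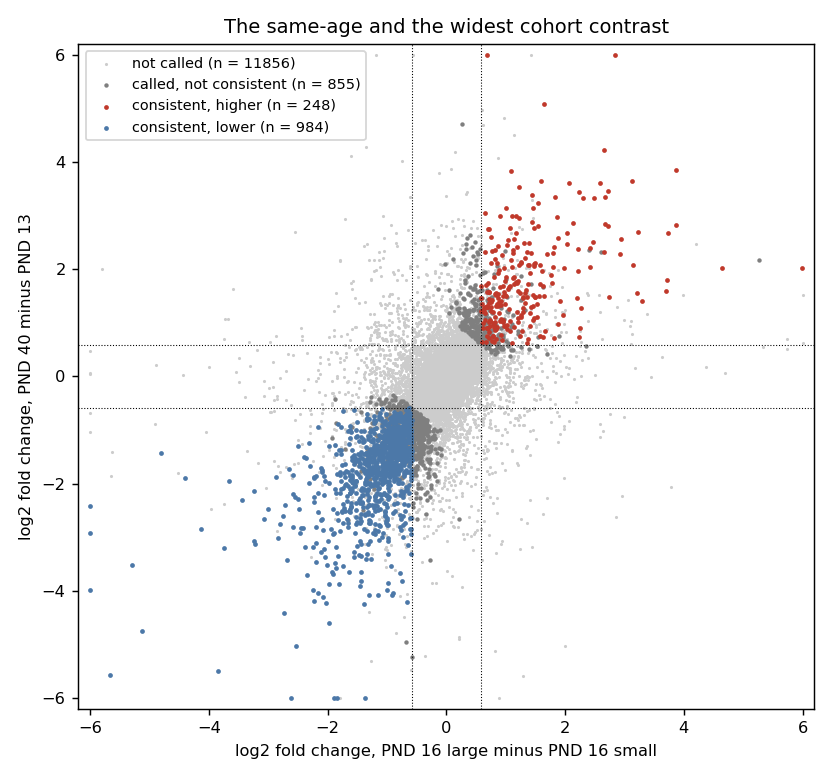
Each point is 1 of the 13943 genes tested, with the log2 fold change of PND 16 large minus PND 16 small on the x axis and of PND 40 minus PND 13 on the y axis. Values beyond 6 in either direction are drawn at 6, dotted lines mark 1.5-fold, and the 248 higher (red) and 984 lower (blue) consistent genes lie beyond them in the upper right and lower left, whereas the 855 called genes that were not consistent (dark grey) crowd along the limits.

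The sizes of these changes were moderate. The median log2 fold change of competent vs. non-competent oocytes was 1.43 for the higher and -1.31 for the lower consistent genes, and the change was over 2-fold for 195 and 772 of them and over 4-fold for 55 and 152. All 6 competent pools lay on one side of all 6 non-competent pools for 145 of the higher and 603 of the lower consistent genes, where 14.7% of all genes tested had groups that did not overlap. Summed over the 248 higher genes, the 6 competent pools held 3338 to 4128 CPM (median 3837) and the 6 non-competent pools held 1479 to 2028 CPM (median 1789). The 984 lower genes summed to 13411 to 18322 CPM (median 15225) in competent and 32646 to 46130 CPM (median 43242) in non-competent pools. Neither sum overlapped between the groups, as the choice of genes fixes.

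The upstream sequences of the leading genes are shown because higher and lower consistent genes differed in the number of CpG dinucleotides before their start sites, as described further on. The stretches were taken from the 250 bases before the start site in RefSeq (GRCm38.p6), trimmed to the part that holds no annotated exon, and are printed 5′ to 3′ on the strand of the gene with each CpG in capitals. They are the first 4 in each direction, by size of change among the 10 leading genes of that direction (consistent, averaging at least 5 CPM, groups apart), that had an entry in the RefSeq table and such a stretch of at least 150 bases. The 4 genes that were higher in competent oocytes have 1 to 11 such sites.
Slc16a12 (chr19:34747329-34747578, minus strand, 250 bases, 11 CpG sites): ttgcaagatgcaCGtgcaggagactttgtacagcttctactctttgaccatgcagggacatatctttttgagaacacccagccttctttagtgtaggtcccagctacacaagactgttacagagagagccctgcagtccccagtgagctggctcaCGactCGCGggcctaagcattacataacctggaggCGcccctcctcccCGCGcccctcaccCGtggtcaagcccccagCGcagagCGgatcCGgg
Lmo3 (chr6:138581969-138582218, minus strand, 250 bases, 6 CpG sites): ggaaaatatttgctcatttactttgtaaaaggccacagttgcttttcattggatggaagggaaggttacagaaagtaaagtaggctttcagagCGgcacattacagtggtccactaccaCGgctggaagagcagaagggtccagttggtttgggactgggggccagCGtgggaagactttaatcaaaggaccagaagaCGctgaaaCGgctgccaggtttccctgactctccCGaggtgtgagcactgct
Abca9 (chr11:110168197-110168403, minus strand, 207 bases, 1 CpG sites): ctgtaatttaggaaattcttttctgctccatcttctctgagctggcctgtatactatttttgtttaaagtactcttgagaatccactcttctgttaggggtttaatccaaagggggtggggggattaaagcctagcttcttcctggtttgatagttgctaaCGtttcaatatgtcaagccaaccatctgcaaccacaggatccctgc
Thsd7b (chr1:129273054-129273301, plus strand, 248 bases, 3 CpG sites): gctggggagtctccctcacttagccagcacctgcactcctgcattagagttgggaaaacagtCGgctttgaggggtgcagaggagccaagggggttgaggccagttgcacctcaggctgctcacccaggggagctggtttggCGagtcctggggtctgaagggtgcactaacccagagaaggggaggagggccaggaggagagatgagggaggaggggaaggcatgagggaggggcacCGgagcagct
The 4 genes that were lower in competent oocytes have 10 to 29.
Igfbp5 (chr1:72874885-72875115, minus strand, 231 bases, 10 CpG sites): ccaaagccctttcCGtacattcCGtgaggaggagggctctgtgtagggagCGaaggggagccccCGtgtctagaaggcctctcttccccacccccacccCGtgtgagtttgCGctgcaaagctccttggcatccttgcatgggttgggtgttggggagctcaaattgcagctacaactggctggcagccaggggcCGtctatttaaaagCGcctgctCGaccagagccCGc
Cdc42ep4 (chr11:113751882-113752065, minus strand, 184 bases, 11 CpG sites): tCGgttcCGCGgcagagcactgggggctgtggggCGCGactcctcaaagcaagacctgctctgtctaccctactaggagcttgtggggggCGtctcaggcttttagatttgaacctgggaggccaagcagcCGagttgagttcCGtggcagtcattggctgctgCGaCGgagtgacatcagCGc
Simc1 (chr13:54503555-54503778, plus strand, 224 bases, 18 CpG sites): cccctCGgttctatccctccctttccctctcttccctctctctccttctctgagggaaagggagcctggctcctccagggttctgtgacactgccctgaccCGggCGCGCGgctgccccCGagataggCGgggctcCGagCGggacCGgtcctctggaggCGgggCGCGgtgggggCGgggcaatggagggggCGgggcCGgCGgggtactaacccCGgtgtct
Sgpl1 (chr10:61147704-61147934, minus strand, 231 bases, 29 CpG sites): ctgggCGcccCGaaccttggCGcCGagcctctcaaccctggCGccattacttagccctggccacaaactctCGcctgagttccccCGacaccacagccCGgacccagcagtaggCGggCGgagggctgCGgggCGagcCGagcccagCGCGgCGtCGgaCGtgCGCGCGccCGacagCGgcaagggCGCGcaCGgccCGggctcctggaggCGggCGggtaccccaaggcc

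Among the genes that were higher in competent oocytes, Myocd, a coactivator of serum response factor known from muscle (chr11:65176561-65269989, minus strand, GRCm38), came first by size of change among those that averaged at least 5 CPM with groups that did not overlap. It was at 11.8 to 36.6 CPM (median 16.1) in the 6 competent pools and at 1.12 to 3.01 CPM (median 2.42) in the 6 non-competent pools, a log2 fold change of 3.04 (SE 0.32, edgeR adjusted p = 2.68e-05). Its choice required every competent pool to be apart from every non-competent pool, and the highest was a PND 40 pool. Slc16a12, a transporter of creatine, was at 3.07 to 16.5 CPM (median 9.73) vs. 0.901 to 3.01 CPM (median 2.08), a log2 fold change of 2.31 (SE 0.44, edgeR adjusted p = 0.00167). PND 16 large, at 4.53 ± 1.30 CPM (SD, n = 3), lay much nearer to the non-competent pools than PND 40, at 14.99 ± 1.35 CPM. The contrast of PND 16 large vs. PND 16 small was not called for Slc16a12 (edgeR adjusted p = 0.11).

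Cxcr3, Crabp2 and Cntn6 were also among the leading higher genes. Cxcr3, a receptor of interferon-induced chemokines, was at 9.94 to 30.0 CPM (median 18.9) in competent and 2.09 to 8.06 CPM (median 4.05) in non-competent pools (log2 fold change 2.09, SE 0.38, edgeR adjusted p = 0.00124). It was graded within the competent pools, which fell into a lower PND 16 large and a higher PND 40 set without touching the non-competent ones. Crabp2, which carries retinoic acid to its nuclear receptor, was at 22.5 to 62.2 CPM (median 38.9) vs. 5.69 to 14.1 CPM (median 12.5), a log2 fold change of 1.89 (SE 0.30, edgeR adjusted p = 0.000531). Cntn6, a contactin of the neuronal cell surface, was at 8.51 to 27.6 CPM (median 14.9) vs. 1.84 to 6.22 CPM (median 5.24), a log2 fold change of 1.87 (SE 0.31, edgeR adjusted p = 0.00067). Groups that did not overlap were a condition for naming these 3 genes. The contrast of PND 16 large vs. PND 16 small was called for Crabp2 (edgeR adjusted p = 0.00212). It was not called for Cxcr3 or Cntn6 (edgeR adjusted p = 0.0599 and 0.0596).

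Some higher genes were already at a wide range of levels among the non-competent pools. Lmo3, a LIM-only transcriptional cofactor, was at 18.2 to 26.2 CPM (median 22.2) in competent but 0.287 to 12.5 CPM (median 4.97) in non-competent pools (log2 fold change 1.94, SE 0.59, edgeR adjusted p = 0.0268). Its adjusted p was just over 0.05 without PND 16 large replicate 1 (0.0504) or PND 16 small replicate 1 (0.0531). Abca9, a transporter of the ABC family, was at 24.1 to 33.4 CPM (median 29.1) vs. 1.72 to 19.6 CPM (median 4.27), a log2 fold change of 1.76 (SE 0.52, edgeR adjusted p = 0.0234). For Abca9 PND 16 small averaged 13.6 ± 8.47 CPM and PND 13 only 3.27 ± 1.47 CPM, so the same-age contrast (1.17 on the log2 scale) was smaller than PND 16 large vs. PND 13 (3.22). Thsd7b, a thrombospondin-repeat protein, was at 12.2 to 24.7 CPM (median 17.5) vs. 0.614 to 10.7 CPM (median 4.83), a log2 fold change of 1.74 (SE 0.49, edgeR adjusted p = 0.018). All 3 genes were chosen from those with groups that did not overlap. None of them was called in PND 16 large vs. PND 16 small (edgeR adjusted p = 0.241 for Lmo3, 0.148 for Abca9 and 0.364 for Thsd7b).

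Tmem171 codes for a membrane protein and Rnf152 for a ubiquitin ligase of lysosomes that acts on mTORC1 signalling. Tmem171 was at 22.3 to 27.2 CPM (median 24.9) vs. 4.66 to 14.3 CPM (median 6.45), a log2 fold change of 1.74 (SE 0.24, edgeR adjusted p = 0.000163). Rnf152 was at 16.4 to 32.2 CPM (median 24.2) vs. 4.01 to 10.2 CPM (median 8.27), a log2 fold change of 1.70 (SE 0.22, edgeR adjusted p = 0.00011). Both were chosen from genes with groups apart, and the competent pools of Tmem171 differed little from one another.

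The higher consistent genes with the largest CPM, among those whose groups did not overlap, were changed less. Ctnnbl1, a protein associated with the spliceosome, was at 170.3 to 207 CPM (median 183) vs. 97.3 to 129 CPM (median 120.3), a log2 fold change of 0.66 (SE 0.08, edgeR adjusted p = 5.27e-05). Steap2, a metalloreductase, was at 125 to 179 CPM (median 142) vs. 61.0 to 88.8 CPM (median 86.9), a log2 fold change of 0.87 (SE 0.10, edgeR adjusted p = 6.58e-05). These 2 genes and the next 2 had groups that did not overlap, which their choice required. Glis3, a zinc finger transcription factor, was at 101 to 132 CPM (median 124) vs. 24.2 to 88.6 CPM (median 56.0), a log2 fold change of 1.07 (SE 0.22, edgeR adjusted p = 0.00329). Its contrast of PND 16 large vs. PND 16 small was not called (edgeR adjusted p = 0.104). Myom2, a myomesin of the sarcomere M-band, was at 84.2 to 109 CPM (median 97.5) vs. 47.6 to 63.4 CPM (median 57.3), a log2 fold change of 0.77 (SE 0.08, edgeR adjusted p = 3.34e-05).

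**Figure D2:**
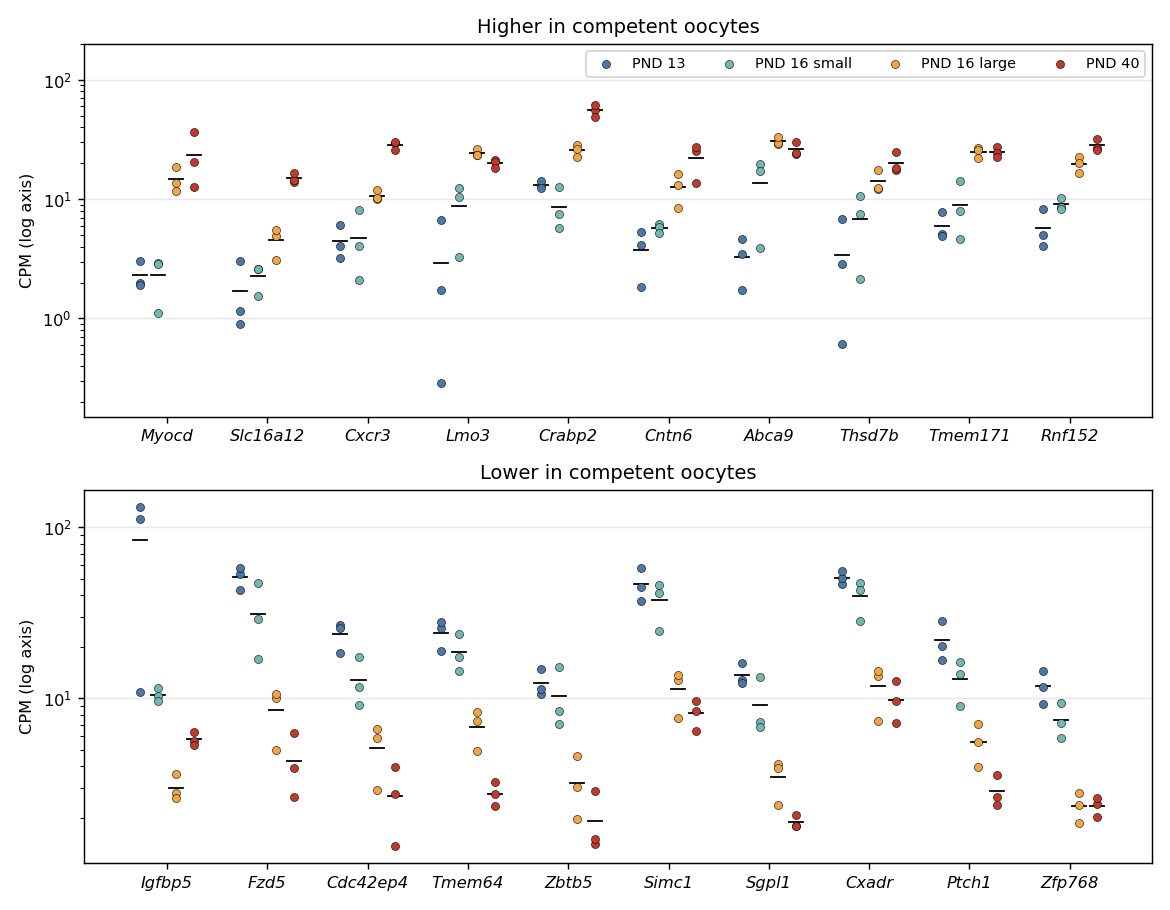
CPM (log axis) of the 10 consistent genes that changed most in either direction, taken from those averaging at least 5 CPM with groups that did not overlap, with 1 point per pool and a bar at the mean of each cohort of 3 pools. For the genes at the top every PND 16 large and PND 40 point lies above every PND 13 and PND 16 small point of the same gene, and for the genes at the bottom the reverse holds, with 2 PND 13 pools of Igfbp5 far above the rest at 112 and 131 CPM.

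Among genes that were lower in competent oocytes, Fzd5, Ptch1 and Igfbp5 were 3 of the 10 leading ones. Fzd5, a Frizzled receptor of Wnt ligands (chr1:64730558-64737751, minus strand, GRCm38), was at 2.66 to 10.5 CPM (median 5.62) in competent and 16.9 to 57.8 CPM (median 44.9) in non-competent pools, a log2 fold change of -2.69 (SE 0.37, edgeR adjusted p = 0.000267). Ptch1, the receptor that Hedgehog ligands bind, was at 2.39 to 7.06 CPM (median 3.77) vs. 8.96 to 28.4 CPM (median 16.5), a log2 fold change of -2.05 (SE 0.30, edgeR adjusted p = 0.000269). As the choice of genes required, both were at least 1.5-fold lower in each of the 4 contrasts and did not overlap between groups. Ptch1 is also a marker of theca cells, and the values of that list are given further on. Igfbp5, a secreted binding protein of insulin-like growth factors, was at 2.60 to 6.36 CPM (median 4.48) vs. 9.67 to 131 CPM (median 11.1), a log2 fold change of -3.43 (SE 0.84, edgeR adjusted p = 0.0112). Here 2 PND 13 pools, at 112 and 131 CPM, set the size of the change, and the other 4 non-competent pools were at 9.67 to 11.4 CPM. Without the 3 pools with the highest granulosa cell marker sums, which include those 2, the log2 fold change of Igfbp5 was -1.27 (edgeR adjusted p = 0.00913). With all pools, its contrasts against PND 16 small were not called (edgeR adjusted p = 0.148 for PND 16 large and 0.396 for PND 40).

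Cxadr, Cdc42ep4 and Sgpl1 were also among the leading lower genes. Cxadr, a junctional adhesion protein and virus receptor, was at 7.16 to 14.5 CPM (median 11.1) vs. 28.4 to 55.1 CPM (median 46.6), a log2 fold change of -2.06 (SE 0.20, edgeR adjusted p = 2.25e-05). Cdc42ep4, an effector of the small GTPase Cdc42, was at 1.37 to 6.59 CPM (median 3.44) vs. 9.13 to 26.6 CPM (median 17.9), a log2 fold change of -2.22 (SE 0.36, edgeR adjusted p = 0.000605). Sgpl1, the lyase that ends sphingosine 1-phosphate signalling, was at 1.80 to 4.14 CPM (median 2.22) vs. 6.82 to 16.0 CPM (median 12.5), a log2 fold change of -2.09 (SE 0.28, edgeR adjusted p = 0.000133). Their groups were apart by the choice of genes, and PND 13 was on average the highest and PND 40 the lowest cohort in each.

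The remaining leading lower genes were Simc1, Zbtb5, Zfp768 and Tmem64. Simc1, which binds SUMO, was at 6.48 to 13.7 CPM (median 9.03) vs. 24.7 to 57.7 CPM (median 43.0), a log2 fold change of -2.10 (SE 0.21, edgeR adjusted p = 2.68e-05). Zbtb5, a zinc finger repressor, was at 1.42 to 4.62 CPM (median 2.41) vs. 7.06 to 15.3 CPM (median 10.96), a log2 fold change of -2.13 (SE 0.30, edgeR adjusted p = 0.000176). Zfp768, a zinc finger protein, was at 1.88 to 2.79 CPM (median 2.38) vs. 5.88 to 14.5 CPM (median 9.30), a log2 fold change of -2.04 (SE 0.22, edgeR adjusted p = 3e-05). The competent pools of Zfp768 hardly differed from one another, at 2.35 ± 0.453 CPM in PND 16 large and 2.35 ± 0.293 CPM in PND 40 (SD, n = 3). Tmem64, a transmembrane protein, was at 2.35 to 8.28 CPM (median 4.07) vs. 14.5 to 28.0 CPM (median 21.3), a log2 fold change of -2.15 (SE 0.31, edgeR adjusted p = 0.000232).

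Among those with groups apart, the lower consistent genes with the largest CPM were Rn45s, Hsph1, Ddx6 and Ankrd52. Ddx6, the DEAD-box helicase that holds stored mRNA in ribonucleoprotein granules (chr9:44604892-44640731, plus strand, GRCm38), was at 103 to 149 CPM (median 118) vs. 249.5 to 346 CPM (median 310.0), a log2 fold change of -1.32 (SE 0.10, edgeR adjusted p = 1.2e-05). Hsph1, a chaperone of the Hsp110 family, was at 298 to 384 CPM (median 329.5) vs. 386 to 719 CPM (median 628), a log2 fold change of -0.82 (SE 0.13, edgeR adjusted p = 0.000332). Ankrd52, a regulatory subunit of protein phosphatase 6, was at 107 to 148 CPM (median 118) vs. 187 to 303 CPM (median 244), a log2 fold change of -0.95 (SE 0.11, edgeR adjusted p = 6.07e-05). Competent and non-competent pools were apart for each of them, as the choice required, and narrowly so for Hsph1.

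Rn45s, the precursor of ribosomal RNA, was the consistent gene with the largest CPM. It was at 5195 to 9925 CPM (median 6199) in competent and 14332 to 30173 CPM (median 22594) in non-competent pools, a log2 fold change of -1.72 (SE 0.21, edgeR adjusted p = 0.000107). Its share of all counts was 0.520% to 0.954% in competent and 1.46% to 2.98% in non-competent pools, with no overlap. Ribosomal RNA was depleted during library preparation, so these counts measure what depletion left, and whether depletion differed between the groups was not tested. Without Rn45s the lower consistent genes still summed to 7755 to 9954 CPM (median 8416) vs. 14927 to 21604 CPM (median 19003).

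**Figure D3:**
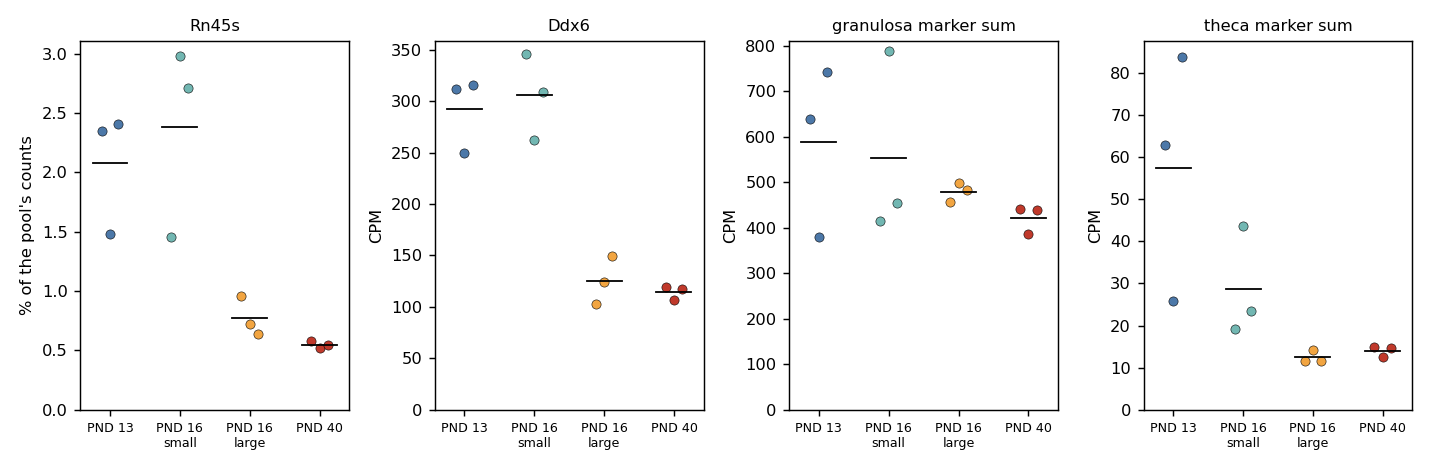
From left to right, the share of counts on Rn45s (% of the counts of a pool), the CPM of Ddx6, and the summed CPM of the granulosa and of the theca cell markers, with 1 point per pool and a bar at the mean of each cohort of 3 pools. Rn45s and Ddx6, both chosen from genes with groups apart, and the theca sum, through its member Ptch1, are separated between the competent (PND 16 large, PND 40) and the non-competent cohorts. The granulosa sum overlaps, with 3 non-competent pools at 640, 743 and 789 CPM.

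Markers of the cells around the oocyte were measured because pools can carry some of them. In a pool, fewer cells of a type and less RNA per cell cannot be told apart. Summed over 17 granulosa and cumulus cell markers, competent pools were at 387 to 497 CPM (median 449) and non-competent pools at 380 to 789 CPM (median 548). Of the 17, 3 (17.6%) were called, all lower (Fshr, Gatm and Wt1), where 15% of all genes were called and 11.2% were called lower. The median log2 fold change of the 17 was -1.58, against 0.00 over all genes, and 14 of them were below 0. The high sums were those of PND 13 replicates 1 and 3 and PND 16 small replicate 2. Theca and steroidogenic markers summed to 11.5 to 14.8 CPM in competent and 19.2 to 83.9 CPM in non-competent pools. Of the 5 tested, 2 were called lower, Ptch1 and Hsd3b1. The log2 fold change was below 0 for 3 of the 5 and above 0 for 2, with a median of -0.29. The groups were apart in this sum only through Ptch1, a gene named because its groups were apart, and without it the sum was 6.01 to 12.1 CPM in competent and 5.34 to 55.5 CPM in non-competent pools, with overlap. Hsd3b1 is a steroid dehydrogenase, while Cyp17a1, Insl3 and Lhcgr, which define the type, were too low to be tested. Oocyte markers were at 14731 to 17387 CPM in competent and 16387 to 19320 CPM in non-competent pools.

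Leaving out the 3 pools with high granulosa sums, chosen after the data were seen, left 1597 called genes, 444 higher and 1153 lower. The non-competent pools of this fit were only PND 13 replicate 2 and PND 16 small replicates 1 and 3. Whether a call was lost because fewer pools were compared was not tested. All leading genes described above were still called in that fit, with log2 fold changes of -1.33 for Ddx6 (edgeR adjusted p = 0.000132), -1.51 for Rn45s (edgeR adjusted p = 0.00317) and -1.99 for Ptch1 (edgeR adjusted p = 0.00131). Of the 1232 consistent genes, 879 were still called and 781 still consistent, and 14 changed sign. The 2 non-competent pools with the lowest Rn45s shares, PND 13 replicate 2 and PND 16 small replicate 1, also had the lowest granulosa sums of their cohorts. With the granulosa marker level as a covariate 1975 genes were called, 562 higher and 1413 lower, and of the 1232 consistent genes 1116 were still called and 1051 still consistent.

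Gene lists were then read against the background of 3.78% called higher and 11.2% called lower. The Wnt pathway moves signals from secreted ligands over Frizzled receptors and Dishevelled to beta-catenin and TCF factors. Of 34 Wnt genes tested, 9 were called lower and none higher, with a median log2 fold change of -0.27 against 0.00 over all genes. The 9 were the ligands Wnt4 and Wnt9a, the ligand carrier Wls, the receptors Fzd1, Fzd5 and Fzd8, the receptor-removing ligase Znrf3, the transducer Dvl1 and the factor Tcf7l2. Fzd1 was at 0.0735 to 0.438 CPM vs. 1.19 to 2.94 CPM, a log2 fold change of -2.68 (SE 0.41, edgeR adjusted p = 0.000344). Dvl1 was at 6.42 to 15.5 CPM vs. 13.8 to 35.0 CPM, a log2 fold change of -1.23 (SE 0.26, edgeR adjusted p = 0.00272). The Fzd1 groups were apart, and those of Dvl1 overlapped slightly. Ctnnb1, beta-catenin itself, was at 626 to 707 CPM vs. 483 to 581 CPM, a log2 fold change of 0.36 that passed the adjusted p (0.000531, edgeR) but not 1.5-fold. Wnt4 was at 0.178 to 6.22 CPM in non-competent pools, and its log2 fold change of -2.83 turned to 0.088 without the 3 pools with high granulosa sums, where 7 Wnt genes were called lower and 1 higher.

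Enzymes that add or remove phosphate on inositol and its lipids were counted in separate lists. Of 17 inositol phosphate kinases and phosphatases tested, 8 were called lower and none higher. The log2 fold change was below 0 for 10 of them and above 0 for 7 (median -0.27). Itpkc, a kinase of inositol trisphosphate, was at 0.123 to 1.03 CPM vs. 1.33 to 4.10 CPM, a log2 fold change of -2.06 (SE 0.43, edgeR adjusted p = 0.00256). Ip6k3, a kinase of inositol hexakisphosphate, was at 0.992 to 2.71 CPM vs. 3.83 to 8.96 CPM, a log2 fold change of -1.73 (SE 0.31, edgeR adjusted p = 0.000871). These genes were scarce. The member with the largest CPM, Ippk, was at 570.2 to 688 CPM vs. 531 to 692 CPM (log2 fold change 0.02, edgeR adjusted p = 0.892). Without the 3 pools with high granulosa sums, 4 members were called lower and 1 higher.

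Of 49 phosphoinositide kinases, phosphatases and lipases tested, 12 were called lower and 1, Dgki, higher (median log2 fold change -0.14), with 8 and none without those 3 pools. The 12 included the phosphatidylinositol 4-kinases Pi4k2a, Pi4k2b and Pi4kb. Pi4k2a was at 29.4 to 43.1 CPM vs. 59.0 to 99.1 CPM, a log2 fold change of -1.09 (SE 0.13, edgeR adjusted p = 6.58e-05). Pikfyve, the kinase that forms the endosomal bisphosphate lipid, was at 158 to 194 CPM vs. 226 to 300.2 CPM, a log2 fold change of -0.63 (SE 0.08, edgeR adjusted p = 8.71e-05). Both had groups that did not overlap.

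Of 48 genes of the PI3K, AKT and mTOR core, 9 were called lower and none higher, with a median log2 fold change of -0.07. Irs2, an adaptor of insulin-like receptors, was at 0.199 to 1.89 CPM vs. 2.02 to 5.49 CPM, a log2 fold change of -1.62 (SE 0.41, edgeR adjusted p = 0.00824). Rptor, the mTORC1 scaffold, was at 28.3 to 38.1 CPM vs. 47.0 to 71.9 CPM, a log2 fold change of -0.90 (SE 0.12, edgeR adjusted p = 0.000133). Igf1r, the receptor of insulin-like growth factor 1, was at 89.5 to 97.8 CPM vs. 124 to 165 CPM, a log2 fold change of -0.61 (SE 0.07, edgeR adjusted p = 5.27e-05). None of the 3 overlapped between the groups. Without the 3 pools with high granulosa sums 6 genes were called lower and 1 higher, and Irs2 was no longer called (-1.44, edgeR adjusted p = 0.0622).

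The Hippo pathway core, which restrains growth through YAP and TAZ, moved both ways, with 3 of 39 genes called higher and 6 lower (median log2 fold change -0.25). The higher genes were the polarity proteins Dlg2, Pard6g and Prkcz. Dlg2 was at a median of 13.1 CPM vs. 6.15 CPM, without overlap, a log2 fold change of 1.01 (SE 0.16, edgeR adjusted p = 0.000428). Frmd6, an upstream FERM protein, was at 1.36 to 6.29 CPM vs. 6.88 to 15.9 CPM, a log2 fold change of -1.63 (SE 0.38, edgeR adjusted p = 0.00537), and was not called without those 3 pools (-1.37, edgeR adjusted p = 0.0683). The other lower genes were the polarity proteins Scrib and Dlg3, the regulator Wtip, the transcriptional coactivator Wwtr1 (TAZ) and its partner Tead1.

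Genes that store or degrade maternal mRNA were read next. Of 28 storage and translation genes 5 were called lower and none higher (median log2 fold change 0.01), namely Ddx6, Cpeb2, Patl2, Fmr1 and Pabpc1. Cpeb2, which binds cytoplasmic polyadenylation elements, was at a median of 10.4 CPM vs. 22.5 CPM, a log2 fold change of -1.13 (SE 0.18, edgeR adjusted p = 0.000407). Patl2, an oocyte partner of Ddx6, was at 73.6 to 105 CPM vs. 112 to 187 CPM, a log2 fold change of -0.80 (SE 0.13, edgeR adjusted p = 0.000631). Neither overlapped between the groups. Of 31 decay genes 6 were called lower and 1 higher (median -0.03). Ythdf2, a reader of N6-methyladenosine that directs mRNA to decay, was at 114 to 155 CPM vs. 203 to 251 CPM, a log2 fold change of -0.85 (SE 0.09, edgeR adjusted p = 2.68e-05). Cnot7, a deadenylase of the CCR4-NOT complex, went the other way, at 601 to 685 CPM vs. 284 to 574 CPM (log2 fold change 0.60, SE 0.13, edgeR adjusted p = 0.00346). It was close to the 1.5-fold limit and was no longer called when PND 13 replicate 2 or 3 or PND 16 large replicate 1 or 3 was left out, with log2 fold changes of 0.55, 0.50, 0.57 and 0.58.

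Of 51 enzymes of DNA methylation and chromatin, 9 were called lower and none higher, with a median log2 fold change of -0.02. Ehmt2 (G9a), a histone H3 lysine 9 methyltransferase, was at 9.90 to 15.2 CPM vs. 24.0 to 41.4 CPM, a log2 fold change of -1.43 (SE 0.15, edgeR adjusted p = 2.68e-05). Kdm1b, a demethylase needed for imprints in the oocyte, was at 469.5 to 838 CPM vs. 872 to 1207 CPM, a log2 fold change of -0.79 (SE 0.16, edgeR adjusted p = 0.00222). Both groups were apart in these genes, and for Kdm1b PND 40 lay lowest, at 476 ± 9.12 CPM. Dnmt1, the maintenance methyltransferase and the member with the largest CPM, was not called.

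The family of genes named Zfp, zinc finger proteins that mostly bind DNA, held the largest number of called genes among the lists. Of 346 tested, 83 were called lower and 5 higher (25.4% in all), and the median log2 fold change was -0.34. Consistent genes were 61 of the lower and 3 of the higher. Zfp281, a regulator of pluripotency, was at 5.97 to 9.16 CPM vs. 15.8 to 39.1 CPM, a log2 fold change of -1.99 (SE 0.19, edgeR adjusted p = 1.67e-05). Zfp707 was at 13.5 to 26.3 CPM vs. 39.7 to 75.03 CPM, a log2 fold change of -1.76 (SE 0.18, edgeR adjusted p = 2.68e-05). Zfp488, a repressor known from oligodendrocytes, was the opposite case, at 0.868 to 2.35 CPM vs. 0.0409 to 0.334 CPM (log2 fold change 3.42, SE 0.46, edgeR adjusted p = 0.000144). All 3 had groups that did not overlap. Without the 3 pools with high granulosa sums 65 were called lower and 4 higher.

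Solute carriers, which move small molecules across membranes, were called higher in 16 and lower in 34 of 262 tested, with a median log2 fold change of 0.01. Slc5a3, the sodium-coupled carrier of myo-inositol, was at 16.2 to 22.4 CPM vs. 30.2 to 75.2 CPM, a log2 fold change of -1.39 (SE 0.19, edgeR adjusted p = 0.000136). Slc6a6, the taurine transporter, was at 93.3 to 158 CPM vs. 40.9 to 93.9 CPM, a log2 fold change of 1.03 (SE 0.20, edgeR adjusted p = 0.00166). The pools of Slc5a3 were apart, whereas for Slc6a6 the lowest competent and the highest non-competent pool overlapped slightly.

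**Figure D4:**
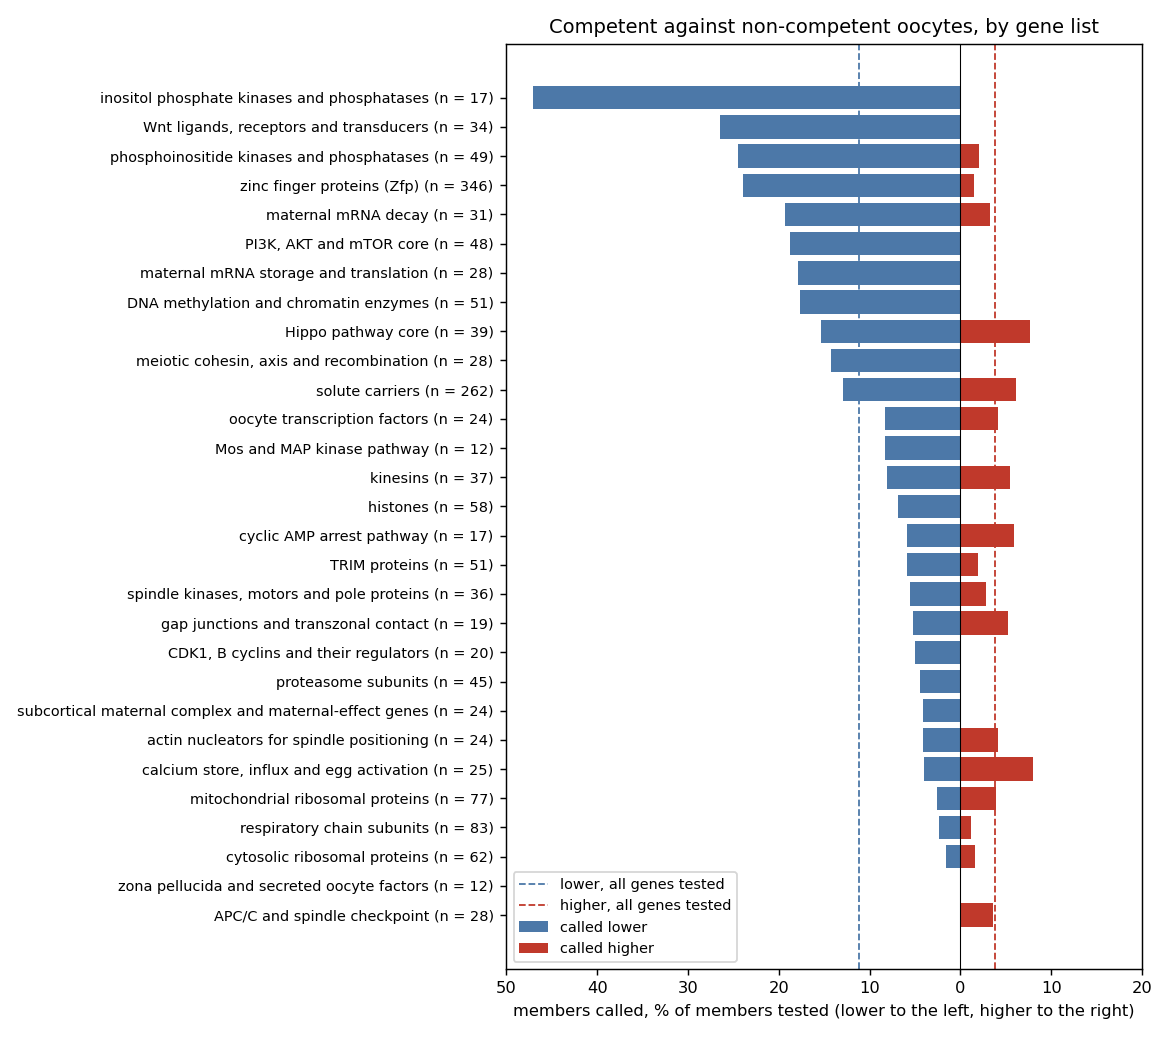
Share of the tested members of each gene list that were called lower (blue bars, to the left) or higher (red bars, to the right) in competent oocytes, in % of members tested, with n for each list. Dashed lines mark the shares over all genes tested, 11.2% lower and 3.78% higher, which are not matched to the lists for level. Of the inositol phosphate genes 8 of 17 and of the Wnt genes 9 of 34 were lower, and the zona pellucida list has no called member.

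The genes that run the meiotic divisions were mostly not called, and many passed the adjusted p with a change under 1.5-fold. These lists were not matched for level. In the highest of the 4 bins by mean CPM, 1.23% of all genes were called higher and 2.90% lower, with a median log2 fold change of 0.10. Over all genes 14.2% passed the adjusted p higher and 16.5% lower when no fold was asked. Of 20 genes of CDK1, the B cyclins and their regulators, 8 passed it higher and 2 lower, with a median log2 fold change of 0.25. Ccnb1 (cyclin B1), the activating partner of CDK1, was at 216 to 271 CPM vs. 170.5 to 206 CPM, a log2 fold change of 0.35 (SE 0.08, edgeR adjusted p = 0.00307). Wee1, the inhibitory kinase of CDK1, was the only called member, at 40.3 to 60.1 CPM vs. 67.9 to 99.1 CPM (log2 fold change -0.88, SE 0.11, edgeR adjusted p = 8.85e-05). Both genes had groups that did not overlap. Wee2, the oocyte form of that kinase, was at 732 to 845 CPM vs. 567 to 748 CPM, with overlap (log2 fold change 0.23, edgeR adjusted p = 0.0174).

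Of 28 genes of the anaphase-promoting complex and the spindle checkpoint, 10 passed the adjusted p higher and 1 lower (median log2 fold change 0.18). Bub1b (BubR1), a kinase of the checkpoint, was the only one called, at 1602 to 2393 CPM vs. 1091 to 1390.0 CPM (log2 fold change 0.60, SE 0.11, edgeR adjusted p = 0.00121). It fell short of 1.5-fold without PND 13 replicate 3 or without any PND 40 pool, with log2 fold changes of 0.54 to 0.57, and also with total counts alone (0.57), cohort means (0.58), the granulosa covariate (0.57) and without the 3 pools with high granulosa sums (0.53). Ttk (Mps1), which starts checkpoint signalling, was at 489 to 530.2 CPM vs. 307 to 462 CPM, a log2 fold change of 0.38 (SE 0.09, edgeR adjusted p = 0.00471). Of 36 spindle kinases, motors and pole proteins, 11 passed the adjusted p higher and 4 lower (median 0.14). Birc5 (survivin), a subunit of the chromosomal passenger complex, was at 200.4 to 214 CPM vs. 139 to 154 CPM, a log2 fold change of 0.47 (SE 0.05, edgeR adjusted p = 2.68e-05). Aurka, the kinase of spindle poles, was at 229.8 to 280.1 CPM vs. 166 to 200.2 CPM, a log2 fold change of 0.55 (SE 0.07, edgeR adjusted p = 9.61e-05). These differences were small in fold. The groups of Ttk, Birc5 and Aurka did not overlap, but these genes were chosen after their values were seen.

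Proteasome subunits, which degrade ubiquitinated proteins, showed the same pattern. Of 45 tested, 18 passed the adjusted p higher and 2 lower, with a median log2 fold change of 0.20, and 2 were called, both lower. Psmb1, a subunit of the core particle, had a log2 fold change of 0.47 (edgeR adjusted p = 0.000267), and Psmd13, a subunit of the lid, one of -1.01 (edgeR adjusted p = 0.00134). Respiratory chain subunits passed higher in 15 and lower in 3 of 83 (median 0.13), and mitochondrial ribosomal proteins in 14 and 4 of 77 (median 0.14). Cytosolic ribosomal proteins passed in 3 and 2 of 62 (median 0.07). Histones were called lower in 4 of 58 and higher in none (median -0.25), TRIM proteins in 3 and 1 of 51, and kinesins in 3 and 2 of 37.

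Of the pathway that keeps prophase arrest through cyclic AMP, 1 of 17 genes was called in each direction. Pde4d, a cyclic AMP phosphodiesterase, was at 13.9 to 18.1 CPM vs. 6.88 to 12.3 CPM (log2 fold change 0.76, SE 0.15, edgeR adjusted p = 0.00171). Prkacb, a catalytic subunit of protein kinase A, was at 21.4 to 36.1 CPM vs. 41.6 to 47.8 CPM (log2 fold change -0.69, SE 0.13, edgeR adjusted p = 0.00117). Both were separated between the groups. In the Mos and MAP kinase list, Spdya was the only called gene of 12, with at most 1.45 CPM in any pool (edgeR adjusted p = 0.0455), and its call held only while each of 9 pools was kept, namely PND 13 replicates 2 and 3, PND 16 large replicates 2 and 3, PND 40 replicates 1 and 2 and all of PND 16 small (log2 fold changes of -1.54 to -1.89 without them). It was also lost without the 3 pools with high granulosa sums (-1.99, edgeR adjusted p = 0.0824).

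Of 28 genes of meiotic cohesin, chromosome axis and recombination, 4 were called lower and none higher. Mlh3, which marks crossovers, was at 6.95 to 9.32 CPM vs. 13.6 to 25.4 CPM, a log2 fold change of -1.29 (SE 0.14, edgeR adjusted p = 3.62e-05), without overlap. Hormad1, an axis protein of early prophase, was at 0.172 to 0.796 CPM vs. 0.164 to 11.3 CPM, with overlap, and its call rested on a few non-competent pools. The log2 fold change of -3.01 (SE 1.02, edgeR adjusted p = 0.039) was -1.93 (adjusted p = 0.112) without PND 13 replicate 2, and the call was also lost without PND 16 small replicate 1, PND 16 large replicate 1 or 2 or any PND 40 pool (-2.70 to -3.09).

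Of 10 oocyte markers 2, Ddx4 and Nlrp5, were called lower (20%, where 15% of all genes were called). None of 12 zona pellucida and secreted oocyte factors was called. Zp2, a zona protein, came nearest among the zona genes, at 2121 to 3291 CPM vs. 3481 to 4283 CPM (log2 fold change -0.55, SE 0.12, edgeR adjusted p = 0.00296), and Bmp15, a growth factor that acts on cumulus cells, was at 3555 to 3946 CPM vs. 2885 to 3531 CPM (log2 fold change 0.21, SE 0.06, edgeR adjusted p = 0.0179). Their groups did not overlap. Of 24 genes of the subcortical maternal complex and other maternal-effect genes, Nlrp5 alone was called, at 1175 to 1626 CPM vs. 1644 to 2799.8 CPM (log2 fold change -0.62, SE 0.13, edgeR adjusted p = 0.00251). It fell short of 1.5-fold without PND 13 replicate 2, PND 40 replicate 1 or PND 16 small replicate 1 (-0.54, -0.58 and -0.57). Ddx4, the germ cell RNA helicase, was at 106 to 135 CPM vs. 171 to 234 CPM, a log2 fold change of -0.82 (SE 0.09, edgeR adjusted p = 2.68e-05).

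Of 24 oocyte transcription factors, 1 was called higher and 2 lower. Obox2, an oocyte homeobox gene whose close paralogs may share reads, was at 235 to 448 CPM vs. 94.6 to 245 CPM, with slight overlap (log2 fold change 1.06, SE 0.21, edgeR adjusted p = 0.00216). Yy1, a zinc finger factor needed for folliculogenesis, was at 12.3 to 24.0 CPM vs. 25.3 to 49.5 CPM, with groups apart (log2 fold change -1.10, SE 0.18, edgeR adjusted p = 0.000578). Tbpl2, the oocyte TATA-binding protein, had a log2 fold change of -0.87 (edgeR adjusted p = 0.00139).

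Calcium handling moved in single genes. Of 25 tested, Camk2b and Orai2 were called higher and Stim1 lower. Stim1, the sensor of store calcium, was at 2.74 to 6.56 CPM vs. 7.11 to 20.9 CPM, without overlap (log2 fold change -1.497, SE 0.25, edgeR adjusted p = 0.000548). Orai2, a channel that Stim1 opens, was at no more than 0.631 CPM in any pool, and its log2 fold change of 2.75 (SE 0.87, edgeR adjusted p = 0.0272) was not called without PND 13 replicate 2 or 3, PND 16 large replicate 1 or 2 or PND 40 replicate 1 or 2 (2.47 to 2.70), nor without the 3 pools with high granulosa sums (3.44, edgeR adjusted p = 0.101). Of 19 genes of gap junctions and transzonal contact, Cdh2 (N-cadherin) was called higher and Ezr (ezrin) lower. Cdh2 was at 11.4 to 17.1 CPM vs. 3.01 to 10.6 CPM, without overlap (log2 fold change 1.23, SE 0.23, edgeR adjusted p = 0.00124). Gja4 (connexin 37), the oocyte gap junction protein, was at 493 to 596 CPM vs. 357 to 482 CPM, also apart, with a log2 fold change of 0.31 (SE 0.07, edgeR adjusted p = 0.00583). Among 24 actin nucleators and transport proteins for spindle positioning, Fmn1 was called higher and Rab11fip2 lower. The call of Fmn1 (log2 fold change 0.80, edgeR adjusted p = 0.0421) was lost without any 1 pool of PND 13 or PND 16 large or PND 16 small replicate 1 (0.68 to 0.77), and that of Ezr (-0.69, edgeR adjusted p = 0.0408) without any 1 pool of PND 40, PND 13 or PND 16 large replicate 1 or 3 or PND 16 small replicate 1 (-0.50 to -0.72). Without the 3 pools with high granulosa sums neither was called, at 0.81 for Fmn1 (edgeR adjusted p = 0.0943) and -0.27 for Ezr (edgeR adjusted p = 0.481), nor with the granulosa marker level as a covariate (0.83 and -0.50, edgeR adjusted p = 0.0524 and 0.0775).

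The share of consistent genes depended on the level. The tested genes were ranked by mean CPM over all 12 pools and split into 4 bins of equal size. In the lowest bin (0.129 to 2.51 CPM) 3.30% of genes were consistent and higher and 9.18% consistent and lower, and in the second (2.51 to 15.3 CPM) 2.47% and 12.6%. The shares dropped to 1.12% and 5.25% in the third bin (15.3 to 62.2 CPM) and to 0.229% and 1.20% in the fourth (62.3 to 14417 CPM), where 8 genes were higher and 42 lower. The median of the mean CPM was 2.83 for higher and 4.62 for lower consistent genes, against 15.3 for all genes tested.

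The promoters of higher and lower consistent genes had unlike CpG contents. RefSeq windows of 300 bases, from 250 before to 50 after the start site, were matched by gene identifier for 179 higher and 772 lower consistent genes and for 10912 of the genes tested. The median number of CpG dinucleotides per window was 9 in higher consistent genes, 22 in lower ones and 20 over all genes tested. The medians kept this order at each of 3 levels of expression. Among genes below 1 CPM they were 6 for higher, 18 for lower and 12 for genes that were not called. Among genes at 1 to 10 CPM they were 10.5, 21 and 17, and among genes at 10 to 100 CPM they were 10, 25 and 22. The sequences shown above, which differ in length from 184 to 250 bases, have 1 to 11 sites for higher and 10 to 29 for lower genes. These ranges overlap, with 11 sites in Slc16a12 (higher) and 10 and 11 in Igfbp5 and Cdc42ep4 (lower). The contrast is a description over genes, which are not independent replicates.

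Motif letters were searched on both strands of the same windows. GGGCGG, the GC box bound by Sp1 and related factors, which itself holds a CpG, was present in 38.5% of higher and 64.6% of lower consistent genes, in 61.7% of genes tested and in 35.9% of all 27025 promoters in the table. CCAAT was present in 31.3%, 40.2%, 39.2% and 37.9% of the same sets, and TATAAA in 8.38%, 7.77%, 7.64% and 14.2%. The higher and lower sets differed most in the GC box. Genes also differed in extent, with a median span from start to end of 49.5 kb for higher, 20.5 kb for lower and 25.9 kb for all genes tested. At 10 to 100 CPM these spans were 83.0 kb, 31.3 kb and, for genes not called, 26.6 kb. Median transcript length was 3149 bases for higher, 3762 for lower and 3390 for all genes.

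**Figure D5:**
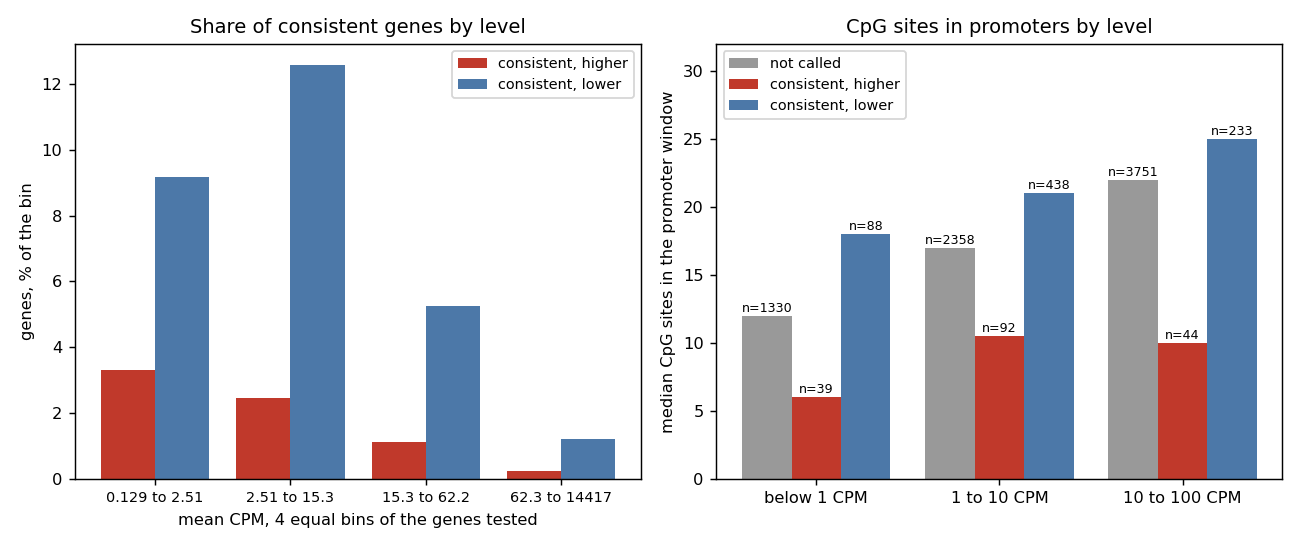
Left, share of the genes in each of 4 equal bins of mean CPM that were consistent and higher (red) or lower (blue), in % of the bin, which fell to 0.229% and 1.20% in the highest bin. Right, median number of CpG sites in the 300-base promoter window by mean CPM for genes not called (grey) and for higher (red) and lower (blue) consistent genes, with the number of promoters above each bar; the red bars stand at 6, 10.5 and 10 and the blue bars at 18, 21 and 25.

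Some called genes belonged to 1 cohort. Where contrasts differed in sign and the gene averaged at least 5 CPM, the largest changes were those of Ddx60, Adam8, Tnfrsf19 and Glis1, all of them higher at PND 40 alone. Ddx60, a helicase induced by interferon, averaged 22.2 ± 7.7 CPM (SD, n = 3) at PND 40 and 2.77 to 3.90 CPM in the other cohorts, and was called in the pooled comparison (log2 fold change 1.96, SE 0.58, edgeR adjusted p = 0.0219). Adam8, a membrane metalloprotease, averaged 14.9 ± 0.683 CPM at PND 40 and 1.25 to 3.14 CPM elsewhere (log2 fold change 1.91, SE 0.67, edgeR adjusted p = 0.0464). For Ddx60 the PND 16 large pools lay within the range of the non-competent pools. For Adam8 they were at 1.60 to 1.93 CPM, below every PND 13 pool (1.99 to 4.42 CPM) and above every PND 16 small pool (0.83 to 1.52 CPM). Tnfrsf19, a receptor of the tumour necrosis factor family, averaged 14.3 CPM at PND 40 and 3.36 to 4.80 CPM elsewhere, and Glis1, a zinc finger factor, 19.0 CPM and 5.08 to 8.21 CPM. The test of differences between the cohorts inside the groups was passed by each of the 4 (edgeR adjusted p = 0.01, 0.00033, 0.018 and 0.0043). None of them was called without the 3 pools with high granulosa sums, a fit with fewer non-competent pools. There the log2 fold changes were 2.17 for Ddx60 and 2.54 for Adam8. Tnfrsf19 was at 0.86 and Glis1 at 1.16, against 1.22 and 1.00 with all pools. Adam8, Glis1 and Tnfrsf19 were not called when any single PND 40 pool was left out (1.64 to 1.70, 0.84 to 0.90 and 1.01 to 1.18). Nor was Ddx60 called without PND 40 replicate 2 or 3 (1.63 and 1.62) or PND 13 replicate 3 (1.94). The call was also lost for Adam8 without PND 13 replicate 1 or 2 or any PND 16 small pool (1.73 to 2.02), for Tnfrsf19 without any PND 13 pool or PND 16 small replicate 2 (1.08 to 1.18), and for Glis1 without PND 16 small replicate 2 or 3 (0.86 and 0.93).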

How the data were processed

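RNA-Seq was read from 12 oocyte pools. The study depleted ribosomal RNA, prepared directional libraries and sequenced them on a HiSeq. The authors deposited raw counts per gene for each pool, without normalization. The submitters' processing notes name FastQC, STAR, HTSeq, DESeq, DESeq2 and HOMER and the build mm10 (GRCm38), with no versions. A second deposited table of log2 normalized values was not used. Total counts were 17671193 to 27418358 per pool. Reads carried no molecular identifiers, so counts hold more than counting error, and p-values measure the spread between pools only.

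Cohorts were taken from the deposited labels and competence classes from the study. Genes were kept by filterByExpr (minimum count 10, by cohort), scaled by TMM and tested by edgeR 4.0.16 (robust quasi-likelihood, R 4.3.3, limma 3.58.1) with 2 groups of 6 pools, and the cohort contrasts came from a model of 4 cohorts. Benjamini-Hochberg adjustment was over all 13943 genes, and the SE was approximated as |log2 fold change| over the root of the F statistic. CPM values are TMM-scaled. Scripts were tested on simulated data. Coordinates, spans and lengths are those of GENCODE M21 (GRCm38), and promoters those of RefSeq (GRCm38.p6), read in Python 3.11.15 with pandas 2.3.3, numpy 2.4.6 and matplotlib 3.10.9. Of 606 symbols asked in pathway lists 595 were found.

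Named genes follow a rule: among consistent genes with at least 5 CPM and groups that did not overlap, clone names left out, the 10 with the largest change and the 4 with the highest CPM in each direction; in each list the called member with the largest change in each direction and the member with the highest CPM; and the 4 called genes with at least 5 CPM whose contrasts differ in sign with the largest change. Other genes named were chosen after their values were seen. The genes, lists and rule were all chosen with earlier results of these data known. Alternatives were DESeq2 1.42.0, other scalings and filters, cohort means, other fold criteria, the replicate number as a block, the granulosa marker level as a covariate and leaving out pools.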

Additional observations from a re-analysis of the deposited data

Results flagged for a closer look

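In groups of 6 pools, the pool furthest out was set apart from the others by a large gap in 4 of 74 groups tested (5.41%), where chance gives about 1 in 20. For Myocd, PND 40 replicate 1 was at 36.6 CPM, above the other competent pools. For Tmem171, PND 16 small replicate 2 was at 14.3 CPM, above the other non-competent pools and below every competent pool. The summed stroma markers were at 44.2 CPM in PND 16 large replicate 2 and at 30.7 CPM in PND 16 small replicate 3, against medians of 7.41 CPM in competent and 9.66 CPM in non-competent pools. None of the 5 stroma markers tested was called by edgeR.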

How the results depend on the processing

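The number of called genes (2087) was 2323 with DESeq2, 2094 with RLE factors, 2128 with total counts alone (77.9% lower, with the median of all genes at -0.039), 1987 of 19461 genes without a filter, 2319 from cohort means, 1848 with the replicate number as a block, 1975 with the granulosa marker level as a covariate and 1703 to 2231 when any 1 pool was left out. Consistent genes (1232) were 1339 with DESeq2, 1128 with the block (1097 of them shared with the 1232), 1152 with the covariate and 1043 to 1346 without 1 pool. A mean of at least 5 CPM gave 1200 called genes (295 higher, 905 lower) and 564 consistent ones (93 and 471). With no fold criterion 4283 genes passed, of which 1981 were higher and 53.7% lower. A test against 1.5-fold (glmTreat) gave 483 (67 and 416), with 479 consistent (65 and 414). Called in all 4 contrasts were 503 (59 and 444), and of 1 sign in all 4 were 2065 (510 and 1555), and groups of 6 pools did not overlap for 1045 called genes (227 and 818). The 1218 genes that differed between cohorts inside the groups became 2693 with DESeq2, 708 with the block, and 417 (without PND 16 large replicate 3) to 2864 (without PND 16 small replicate 1) with a pool left out. The cause was not tested. The pools share only a replicate number: deviations of same-numbered pools correlated at -0.188 to 0.0753 between competent and non-competent cohorts and at -0.442 to 0.0678 within the groups, and not every pool correlated best with its own number. Sall4 turned from a change near 0 to -0.0026 with DESeq2 and with RLE factors, to -0.031 with total counts and to between -0.041 and 0.035 without 1 pool; Rdx turned to -0.012 with total counts and lay between -0.012 and 0.044 without 1 pool, and Ippk to -0.017 and between -0.027 and 0.046. None of the 3 was called. Without the 3 pools with high granulosa sums Zfp467 was at 0.43 and Wnt4 at 0.088.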
